A study of Mus musculus with 24 samples.

Results

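The genes described here encode the machinery that brings proteins made in the cytosol into mitochondria. Its members were all genes whose symbol begins with Timm or Tomm, together with Hspd1, Hspe1, Hspa9, Grpel1, Pmpca, Pmpcb, Samm50 and Dnajc19, kept where a probe had a detection p under 0.05 on 3 or more arrays. The probe table held 31 such genes, and 27 of them were kept among 9558 genes tested in all. Tomm20, Samm50, Timm8a2 and Timm23 had probes that missed the detection rule: the first 3 were detected on 0 arrays and Timm23 on at most 1, so no level is given for them. Tomm5, Tomm20l and Tomm40l were not analysed here.

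The cells were 3T3-L1, a mouse fibroblast line that turns into fat-storing adipocytes in culture, and total RNA was measured on 24 Illumina beadchip arrays, 3 replicates at each of 8 time points. Day 0 carries the label undifferentiated, days 2 and 4 differentiating, and days 6, 8, 10, 14 and 18 maturating. Every group, day 0 included, lists differentiation medium with IBMX, insulin and dexamethasone as its treatment, and from day 6 a maturation medium containing insulin is listed as well, so time and medium changed together. No label says if day 0 cells had already met the inducing medium, nor if replicates are different cultures. The p-values below therefore measure only the spread between these samples, which may be technical.

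Nearly all mitochondrial proteins are encoded in the nucleus and enter through the outer membrane translocase, the TOM complex. From there small chaperones of the intermembrane space escort hydrophobic proteins, the TIM22 complex inserts carriers into the inner membrane, and the TIM23 complex with its ATP-driven motor pulls proteins with a presequence into the matrix. Presequences are then cut off by the processing peptidase, and the Hsp60 chaperonin helps the proteins to fold. Adipocytes are known to gain mitochondria as they differentiate.

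The arrays detected between 11695 and 12531 probes each (45.5% to 48.8%), and replicates of a day correlated across genes at 0.982 to 0.996. The number of arrays limits the precision. Replicate 2 of day 4 deviated from the mean of the other arrays of its day by a median of -0.05 over the members (range -0.59 to 1.10); without it 20 members changed over the course and 6 were called from day 4 to 6, and the counts called in the other comparisons were those given below. The adipocyte markers (8 of 8 tested) had a summed intensity of 657 to 799 on the 3 arrays of day 0, with 2 of 8 detected, and of 29722 to 36796 on day 18, with all 8 detected. The fibroblast and preadipocyte markers (6 of 6 tested) summed to 40034 to 44540 on day 0 and to 11640 to 13884 on day 18. Of 3 endothelial markers none was tested, and of 3 muscle markers Myog was tested and called in no comparison. Of 5 macrophage markers Ptprc and Adgre1 were detected on 0 arrays, and the 1 tested, Lyz2, was detected on 3 of 3 arrays on days 0, 14 and 18 and on 0 of 3 on each day from 2 to 10; it was called lower from day 0 to 2 (adjusted p = 1.47e-08) and higher from day 10 to 14 (3.23e-04) and from day 6 to 18 (4.87e-08). Of 2 brown adipocyte markers Ucp1 was detected on 0 arrays, and Cidea, detected on 0 of 3 arrays on day 0, was 3.24 ± 0.29 higher on day 18 than on day 6 (adjusted p = 2.55e-08). The part of these markers in the results was not tested. In these whole-culture samples, fewer cells of a type and less RNA per cell cannot be told apart.

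The import genes were low in undifferentiated cells and rose early. The lowest of the 8 day means fell on day 0 for 23 of 27 members (85.2%, against 24.2% of all genes tested), and the highest on day 4 for 11 (40.7%, against 15.7% of all genes). Over the 27 members the median change from day 0 on the log2 scale was 0.69 on day 2, 0.96 on day 4, 0.65 on day 6, 0.60 on day 8, 0.53 on day 10, 0.57 on day 14 and 0.58 on day 18, while that of all genes tested stayed between -0.08 and 0.02. Changes over the course, by limma's moderated F test with Benjamini-Hochberg adjustment over all genes and a threshold of 0.05, were called for 21 of 27 members, beside 74.5% of all genes tested. The members that missed it were Tomm22, Tomm40, Tomm70a, Timm22, Timm17b and Pmpcb. With the replicate number as a block the count was 24 (background 85.3%), and Pmpcb (adjusted p = 6.23e-11), Tomm70a (1.37e-09) and Tomm22 (5.45e-08) were then called.

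**Figure D1:**
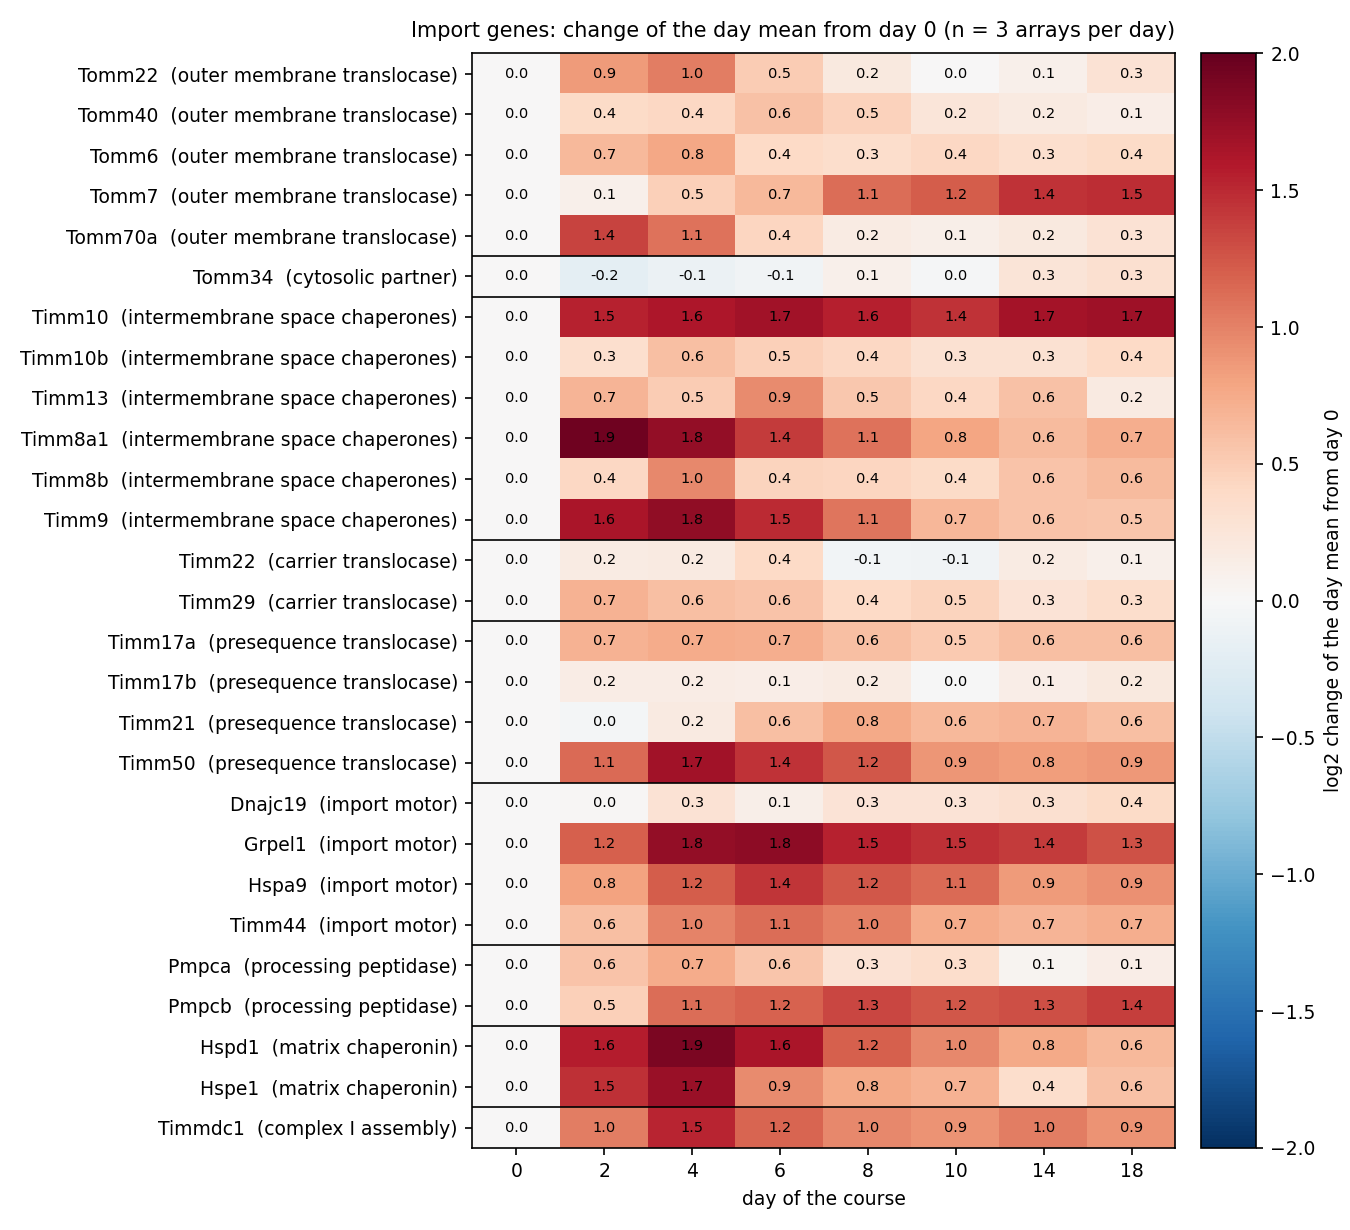
Each row is an import gene with its role and each column a day; colour and numbers give the log2 change of the day mean (n = 3 arrays) from that of day 0. Most rows are red from day 2 on, the small Tim chaperones Timm8a1 and Timm9 fade after day 4, and Tomm7 is deepest on day 18.

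Of the other mitochondrial groups, the 71 mitochondrial ribosomal protein genes had a like course: their median change from day 0 was 0.61 on day 2, 0.85 on day 4 and 0.53 on day 18. Complex I, the first enzyme of the respiratory chain, had 39 genes tested, at 0.42 on day 2, 0.93 on day 4 and 0.93 on day 18. From day 6 to day 18, 10 of 27 import genes fell and 3 rose, 26 of 71 mitochondrial ribosomal protein genes fell and 3 rose, and 4 of 39 complex I genes fell and 3 rose, beside 18.5% of all genes called lower and 18% higher; the differences between these groups were not tested.

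**Figure D2:**
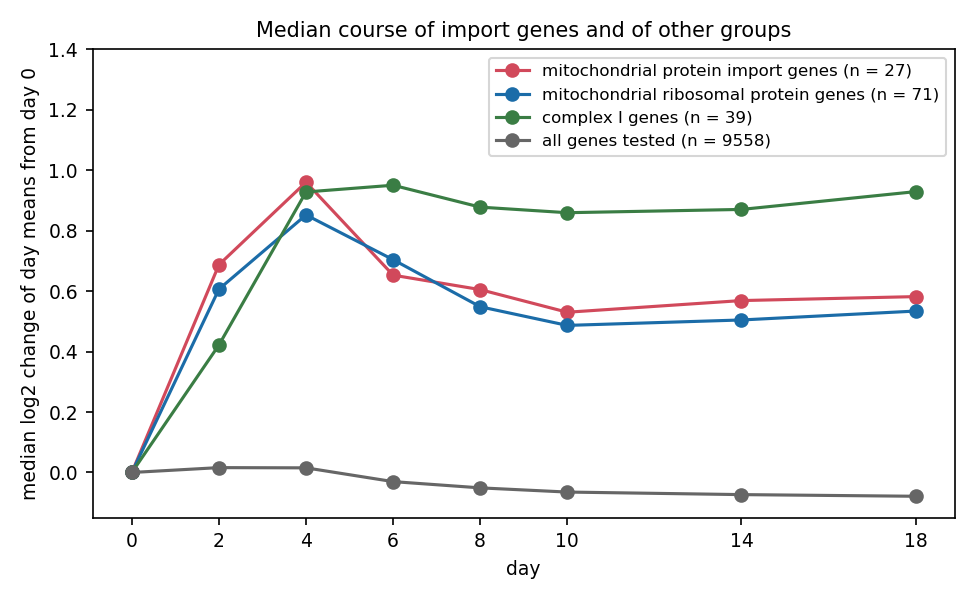
The lines give the median over each group of the log2 change of day means from day 0 (vertical axis) against the day (horizontal axis, n = number of genes). The import line peaks at 0.96 on day 4 and lies at 0.58 on day 18, the complex I line stays between 0.86 and 0.95 from day 4 on, and the line of all 9558 genes stays near 0.

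Between day 0 and day 2 the import genes rose broadly: 18 of 27 were called higher and 0 lower, where 51.5% of all genes tested were called, 25% higher and 26.5% lower. Timm8a1, Timm9, Hspd1 and Timm10 rose most, by 1.94, 1.64, 1.57 and 1.53 on the log2 scale. Without adjustment the same limma fit also gave 18 higher and 0 lower at p under 0.05. The share of all genes at an unadjusted p is not given, here or for the later comparisons. The blocked fit called 20 higher and 1 lower (61.3% of all genes called). For 18 members the arrays of both days did not overlap, as for 57.8% of all genes. Markers of dividing cells (4 of 5 tested) moved in the same step: their summed intensity was 1469 to 1499 on day 0, 4274 to 4482 on day 2, 1483 to 1660 on day 4 and 295 to 316 on day 6. Their part in the result was not tested, nor was that of the adipocyte markers, which summed to 7677 to 7715 on day 2.

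Between day 2 and day 4, 8 members were called higher and 0 lower (background 41.4% called, 18.7% higher and 22.7% lower). All 4 genes of the import motor were among them, with Timm8b, Timm50, Tomm7 and Timm10b; the call of Timm10b (0.27, adjusted p = 0.0412) was lost in 3 fits without 1 array (replicates 1 or 2 of day 2, or replicate 3 of day 4), with the mean of probes and with no detection filter. Without adjustment 9 were higher and 0 lower at p under 0.05. The blocked fit called 12 higher and 1 lower, Tomm70a, beside 53.3% of all genes called in either direction, and 5 members were called without replicate 2 of day 2.

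From day 4 to day 6, 5 members were called lower (18.5%) and 2 higher (7.41%), where 29.3% of all genes were called, 14% lower and 15.3% higher. Timm8b (-0.51), Tomm6 (-0.37), Timm8a1 (-0.36), Timm9 (-0.28) and Timm50 (-0.23) fell, and Timm13 (0.44) and Timm21 (0.43) rose. The blocked fit called 9 lower and 3 higher (41.3% of all genes called), the 4 further falls being Tomm22, Tomm70a, Hspe1 and Timmdc1. Leaving out replicate 3 of day 6 gave 2 lower, leaving out replicate 1 of day 6 gave 3. The calls lost without replicate 3 of day 6 were those of Timm8a1 (adjusted p = 0.0632), Timm9 (0.0561) and Timm50 (0.0612); without replicate 1 of day 4 those of Timm9 and Timm50, without replicate 2 of day 4 that of Timm8a1, without replicate 3 of day 4 or replicate 2 of day 6 that of Timm50, and without replicate 1 of day 6 those of Timm8a1 and Timm50 were lost too.

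From day 6 to day 8, 3 members fell (Timm9, Timm13 and Grpel1) and Tomm7 rose, beside 13% of all genes called, 5.45% lower and 7.54% higher. The blocked fit called 7 lower and 1 higher (23.3% of all genes called). Leaving out replicate 2 of day 6 left 2 calls and replicate 3 of day 8 left 1; the rise of Tomm7 was not called without replicate 1 of day 6 (adjusted p = 0.0531) or without replicate 3 of day 8 (0.0577). Only Timm9 was called lower in every fit without 1 array; Timm13 was lost without replicates 2 or 3 of day 6 or 1 or 3 of day 8, and Grpel1 without replicates 2 or 3 of day 6 or 3 of day 8.

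From day 8 to day 10, Timm9 (-0.40) and Timm50 (-0.35) fell and 0 members rose (background 3.95% called, 1.59% lower and 2.36% higher); the blocked fit called 4 lower (10.6% of all genes called), and only Timm9 was left without replicate 1 of day 8 or replicate 2 of day 10. Between days 10 and 14, and between days 14 and 18, limma called 0 members, beside 2.16% of all genes (1.13% higher and 1.03% lower) and 0.481% (0.45% higher and 0.0314% lower). At an unadjusted p under 0.05, for which no share of all genes is given, 2 were higher and 3 lower from day 10 to 14. From day 14 to 18, 0 were higher and 1 lower at that threshold. The blocked fit called 1 higher (Tomm34) and 1 lower (Hspa9) in the first of these steps, beside 5.99% of all genes. It called 0 in the last, beside 1.04%.

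Over the maturating stage, from day 6 to day 18, 10 members fell and 3 rose (background 36.5% called, 18.5% lower and 18% higher). Hspd1 (-0.98), Timm9 (-0.94), Timm13 (-0.76) and Timm8a1 (-0.67) fell most, and Tomm7 (0.83), Tomm34 (0.39) and Dnajc19 (0.28) rose. The blocked fit called 12 lower and 4 higher (48.3% of all genes called), with Hspe1 and Tomm40 as further falls and Timm8b as a further rise. The fall of Timm29 (-0.22) was lost without replicates 2 or 3 of day 6 or 1 or 2 of day 18. In the same stage the fibroblast and preadipocyte markers rose in 6 of 6 tested genes, from a summed intensity of 4789 to 5528 on day 6, and their part in the falls was not tested. At day 18 the set was still above day 0: 18 members were called higher and 0 lower (background 57.2% called, 23.2% higher and 34% lower), the arrays of 18 did not overlap (61.1% of all genes), and 19 were higher and 0 lower at an unadjusted p under 0.05. The blocked fit called 22 higher and 0 lower (66.2% of all genes called). Of the members called without the block, Timm10 (1.69), Tomm7 (1.48), Grpel1 (1.27) and Hspa9 (0.91) were the furthest above. Pmpcb was 1.38 above day 0, and that difference was called only with the block. The step comparisons share arrays with the stage and whole-course comparisons, so their counts are not independent.

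The promoters of the chaperonin pair and of the 3 small Tim genes that rose most by day 2 are shown because these genes had the largest early changes. The sequences are RefSeq promoters on GRCm38.p6, from 250 bases before to 50 after each start, and 24 of the 27 members had an entry. Capitals mark the letters CCGGAAG, the core bound by ETS-family factors, and CACGTG, the E-box bound by Myc and related factors, on either strand. Hspd1 and Hspe1 lie head to head on chromosome 1 and are read in opposite directions. The windows shown are chr1:55087883-55088182 on the minus strand for Hspd1, the lower of its 2 entries, chr1:55087898-55088197 on the plus strand for Hspe1, chrX:134541621-134541920 (minus) for Timm8a1, chr12:71136626-71136925 (minus) for Timm9 and chr2:84826771-84827070 (plus) for Timm10.
Hspd1: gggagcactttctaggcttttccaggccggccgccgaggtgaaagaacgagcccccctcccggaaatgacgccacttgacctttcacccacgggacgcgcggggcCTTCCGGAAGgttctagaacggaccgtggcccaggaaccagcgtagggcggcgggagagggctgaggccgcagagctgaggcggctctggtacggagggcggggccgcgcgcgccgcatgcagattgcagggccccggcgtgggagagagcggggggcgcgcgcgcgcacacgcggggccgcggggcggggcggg
Hspe1: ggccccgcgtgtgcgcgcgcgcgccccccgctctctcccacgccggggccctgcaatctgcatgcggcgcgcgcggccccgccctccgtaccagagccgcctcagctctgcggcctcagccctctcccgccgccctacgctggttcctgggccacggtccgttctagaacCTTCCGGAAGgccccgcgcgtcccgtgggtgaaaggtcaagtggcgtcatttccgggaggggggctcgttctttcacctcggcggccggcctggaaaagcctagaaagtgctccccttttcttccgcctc
Timm8a1: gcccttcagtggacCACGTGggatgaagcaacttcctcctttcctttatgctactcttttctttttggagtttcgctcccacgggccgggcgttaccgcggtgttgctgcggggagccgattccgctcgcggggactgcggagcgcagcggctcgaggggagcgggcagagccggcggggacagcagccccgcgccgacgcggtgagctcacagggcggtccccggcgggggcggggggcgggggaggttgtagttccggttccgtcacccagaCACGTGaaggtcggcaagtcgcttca
Timm9: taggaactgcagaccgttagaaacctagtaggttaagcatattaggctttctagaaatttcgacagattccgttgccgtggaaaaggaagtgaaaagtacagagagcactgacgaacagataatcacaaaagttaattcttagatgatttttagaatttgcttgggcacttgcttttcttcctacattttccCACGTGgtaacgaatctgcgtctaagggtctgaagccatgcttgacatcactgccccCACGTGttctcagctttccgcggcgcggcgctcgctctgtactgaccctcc
Timm10: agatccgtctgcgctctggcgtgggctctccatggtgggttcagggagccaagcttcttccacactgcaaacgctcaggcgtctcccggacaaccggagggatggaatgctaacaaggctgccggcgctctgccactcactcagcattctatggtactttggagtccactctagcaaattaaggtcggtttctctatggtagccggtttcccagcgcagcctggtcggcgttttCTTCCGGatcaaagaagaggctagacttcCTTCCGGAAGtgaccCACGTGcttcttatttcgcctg
The Hspd1 and Hspe1 windows shared 285 bases, chr1:55087898-55088182, and the run CTTCCGGAAG at chr1:55088068-55088077 stood in both, a pair of ETS cores on opposite strands that overlap in their middle letters. Timm10 held the same run next to an E-box, and a further single core. Timm8a1 and Timm9 each held 2 E-boxes and no ETS core.

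The ETS core stood in the promoters of 13 of 24 matched members (54.2%), counted by gene. It stood in 19.6% of 7786 tested genes with an entry and in 9.93% of all 27025 genes with an entry. Hspd1 and Hspe1 both count among the 13 through the run that their windows share. The E-box stood in 4 members (16.7%), namely Hspd1 (in its other window), Timm10, Timm8a1 and Timm9, against 11.7% of tested genes and 8.09% of all genes. The palindrome of the factor NRF1, searched as its perfect form, and the cyclic AMP response element, TGACGTCA, were in 0 of 24 members. They were in 2.17% and 3.38% of tested genes and in 1.07% and 2.03% of all genes. Each match describes the letters of a window and shows no binding.

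The outer membrane translocase was measured through 5 genes with different courses. In what follows, values are log2 intensity after background correction and quantile normalization, given for replicates 1, 2 and 3 in that order. Tomm7, a small subunit known to act on the stability of the complex, had its lowest day mean on day 0 and its highest on day 18. Tomm7 read 10.14, 10.40 and 10.30 on day 0, 10.21, 10.52 and 10.44 on day 2, 10.66, 10.77 and 10.82 on day 4 and 10.73, 10.90 and 11.17 on day 6. Tomm7 then read 11.28, 11.34 and 11.59 on day 8, 11.38, 11.49 and 11.59 on day 10, 11.72, 11.67 and 11.79 on day 14 and 11.66, 11.79 and 11.84 on day 18. All arrays from day 8 on lay above those of days 0 to 6. From day 0 to day 18 Tomm7 rose by 1.48 ± 0.11 (SE, 2.80-fold, adjusted p = 4.77e-10). Steps were called from day 2 to 4 (0.36, adjusted p = 0.0140) and from day 6 to 8 (0.47, adjusted p = 0.00748). The call from day 2 to 4 was lost at 0.0873 without replicate 1 of day 2 and at 0.0551 without replicate 3 of day 4. The call from day 6 to 8 was lost without replicate 1 of day 6 or replicate 3 of day 8, as given above. Tomm6, another small subunit, instead rose by 0.66 ± 0.09 by day 2 (adjusted p = 2.19e-06), fell by 0.37 from day 4 to 6 and was 0.38 above day 0 on day 18.

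Tomm70a, the gene of the receptor Tomm70 that takes carrier precursors from Hsp70 and Hsp90, had its highest day mean on day 2. Tomm70a read 5.52, 7.20 and 6.83 on day 0, 6.995, 8.54 and 8.08 on day 2, 6.85, 8.11 and 7.83 on day 4 and 6.31, 7.54 and 6.998 on day 6. Tomm70a then read 6.05, 7.21 and 6.75 on day 8, 5.79, 7.27 and 6.82 on day 10, 6.12, 7.20 and 6.83 on day 14 and 6.25, 7.24 and 6.94 on day 18. Replicate 1 was lowest on 8 of 8 days, and its day 2 array lay below the highest array of day 0. Tomm70a was 1.36 ± 0.51 higher on day 2 than on day 0 (adjusted p = 0.0307, 1.50e-09 with the block), and the call was lost without replicate 1 of day 0 (adjusted p = 0.193), replicate 2 of day 2 (0.147) or replicate 3 of day 2 (0.0855). Its later fall was called only with the block, by 0.28 from day 2 to 4 (adjusted p = 0.0430) and by 0.65 from day 4 to 6 (adjusted p = 9.17e-05); without the block these had adjusted p = 0.716 and 0.396.

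Tomm22, the central receptor that holds the complex together, had a similar order of arrays. Tomm22 read 6.32, 7.44 and 7.14 on day 0, 7.09, 8.50 and 7.88 on day 2, 7.35, 8.51 and 8.13 on day 4 and 6.66, 8.15 and 7.63 on day 6. Tomm22 then read 6.37, 7.72 and 7.40 on day 8, 6.43, 7.37 and 7.11 on day 10, 6.48, 7.55 and 7.17 on day 14 and 6.90, 7.62 and 7.27 on day 18. In each replicate number the highest array was that of day 4. The day 2 mean was 0.86 ± 0.45 above day 0 (adjusted p = 0.123), and the block, which compares arrays of one number, gave adjusted p = 1.08e-06. Tomm40, the channel itself, was close to background and detected on 15 of 24 arrays. Tomm40 read 4.88, 4.61 and 4.47 on day 0, 4.80, 5.51 and 4.80 on day 2, 5.18, 5.07 and 4.95 on day 4 and 4.996, 5.35 and 5.37 on day 6. Tomm40 then read 5.25, 4.84 and 5.24 on day 8, 5.21, 4.63 and 4.85 on day 10, 4.64, 4.91 and 4.95 on day 14 and 4.65, 4.98 and 4.72 on day 18. Its arrays overlapped between neighbouring days throughout, and the course test gave adjusted p = 0.108. Tomm34, a cytosolic protein that binds Hsp70 and Hsp90, had a day 2 mean 0.20 below day 0, called only with the block (adjusted p = 0.116, 0.0295 with the block). It was 0.32 ± 0.10 above day 0 on day 18 (adjusted p = 0.0124, 0.0763 without replicate 3 of day 18). A second Tomm34 probe gave -0.09 and 0.15 for the same comparisons.

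The intermembrane space chaperones, the small Tims, form hexamers that shield hydrophobic precursors. All 6 tested were called higher on day 2 than on day 0 (25% of all genes), and they parted afterwards. Timm8a1, which pairs with Timm13 and whose human counterpart is mutated in a deafness and dystonia syndrome, had the widest span of all members. Timm8a1 read 8.85, 9.12 and 9.14 on day 0, 11.0004, 11.10 and 10.82 on day 2, 10.69, 10.93 and 10.78 on day 4 and 10.39, 10.53 and 10.40 on day 6. Timm8a1 then read 9.998, 10.38 and 9.99 on day 8, 9.77, 9.91 and 9.79 on day 10, 9.66, 9.76 and 9.57 on day 14 and 9.79, 9.87 and 9.65 on day 18. Every later array lay above the 3 of day 0, and those of days 2 and 4 above those of day 8 and later. Timm8a1 rose 3.83-fold by day 2 (1.94 ± 0.11, adjusted p = 1.18e-11), and on day 18 it was 0.73 ± 0.11 above day 0 (adjusted p = 9.81e-06).

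Timm9, which builds a hexamer with Timm10, fell in each of 3 steps after its peak. Timm9 read 9.55, 9.67 and 9.65 on day 0, 11.33, 11.19 and 11.26 on day 2, 11.47, 11.30 and 11.42 on day 4 and 11.10, 11.20 and 11.03 on day 6. Timm9 then read 10.73, 10.77 and 10.55 on day 8, 10.30, 10.20 and 10.38 on day 10, 10.30, 10.16 and 10.12 on day 14 and 10.18, 10.21 and 10.11 on day 18. Its replicates lay within a range of 0.22 or less on each day, and all arrays of days 2, 4 and 6 were above those of days 8 to 18. Timm9 rose by 1.64 ± 0.08 by day 2 (adjusted p = 1.03e-12) and fell by 0.94 ± 0.08 from day 6 to 18 (adjusted p = 1.36e-08). Dimmer kept probes of Timm9 gave 0.34 and 1.36 by day 2, and -0.52 and -0.995 from day 6 to 18. From day 0 to 18 they gave -0.08 and 0.23, against 0.55 for the probe used. Timm10, the partner of Timm9 in the hexamer, did not come down. Timm10 read 7.08, 7.50 and 7.26 on day 0, 8.57, 8.89 and 8.98 on day 2, 8.82, 8.97 and 8.91 on day 4 and 8.65, 9.18 and 9.03 on day 6. Timm10 then read 8.46, 9.06 and 8.99 on day 8, 8.56, 8.69 and 8.93 on day 10, 8.72, 8.97 and 9.13 on day 14 and 8.75, 8.94 and 9.21 on day 18. After day 0 the arrays of all days overlapped, and day 18 was 1.69 ± 0.18 above day 0 (3.22-fold, adjusted p = 5.10e-08), whereas from day 6 to 18 no change was called. Timm9 and Timm10 were not among the pairs whose ratio was tested.

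Timm8b, a relative of Timm8a1, peaked on day 4. Timm8b read 11.22, 11.13 and 11.09 on day 0, 11.55, 11.57 and 11.55 on day 2, 12.09, 12.04 and 12.19 on day 4 and 11.59, 11.51 and 11.70 on day 6. Timm8b then read 11.62, 11.44 and 11.67 on day 8, 11.59, 11.36 and 11.65 on day 10, 11.66, 11.73 and 11.74 on day 14 and 11.83, 11.65 and 11.85 on day 18. The 3 arrays of day 4 stood above every other array of Timm8b. It rose by 0.41 ± 0.09 by day 2 (adjusted p = 5.07e-04) and by 0.55 ± 0.09 to day 4 (adjusted p = 2.83e-05), and then fell by 0.51 to day 6 (adjusted p = 1.24e-04). Timm13 was dim, detected on 22 of 24 arrays and on 1 of 3 on day 0, with day means from 4.78 on day 0 to 5.72 on day 6; it rose by 0.69 by day 2 and fell by 0.76 from day 6 to 18. Timm10b, which works with the carrier translocase, rose by 0.33 by day 2 (adjusted p = 0.0112, 0.0531 without replicate 3 of day 2) and was 0.39 above day 0 on day 18.

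**Figure D3:**
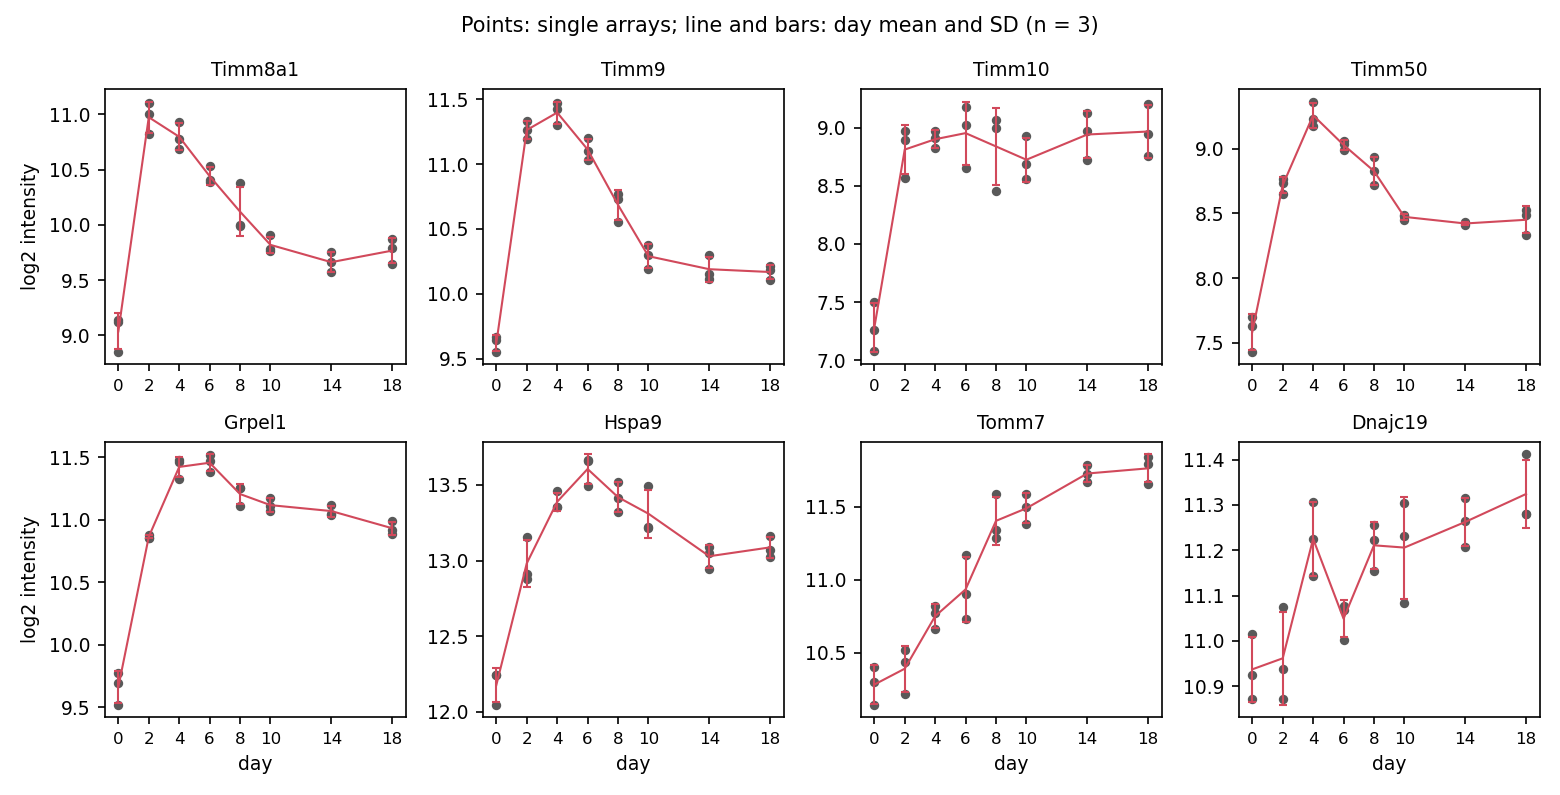
Log2 intensity (vertical axis, a scale of its own in each panel) against day; points are single arrays, the line joins day means and bars are the SD (n = 3). Timm8a1, Timm9 and Timm50 come down after days 2 to 4, Timm10 stays up, Grpel1 and Hspa9 are highest on day 6, and the day means of Tomm7 go from 10.28 on day 0 to 11.76 on day 18.

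In the carrier translocase, Timm22, the pore, was detected on 19 of 24 arrays. Timm22 read 4.97, 4.58 and 4.97 on day 0, 4.90, 5.11 and 5.01 on day 2, 5.43, 4.63 and 5.01 on day 4 and 5.47, 5.39 and 4.87 on day 6. Timm22 then read 4.66, 4.70 and 5.01 on day 8, 4.83, 4.88 and 4.59 on day 10, 5.04, 4.83 and 5.15 on day 14 and 5.08, 4.91 and 4.85 on day 18. The arrays of Timm22 overlapped between neighbouring days and the course test gave adjusted p = 0.268. Timm29, known from human cells as a subunit of the same complex, rose by 0.70 ± 0.08 by day 2 (adjusted p = 3.14e-07) and was 0.35 above day 0 on day 18 (adjusted p = 8.99e-04).

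In the presequence translocase, Timm50, the receptor that takes presequences from the TOM complex, had the largest change. Timm50 read 7.63, 7.43 and 7.69 on day 0, 8.73, 8.65 and 8.77 on day 2, 9.23, 9.18 and 9.36 on day 4 and 9.04, 8.99 and 9.06 on day 6. Timm50 then read 8.94, 8.72 and 8.83 on day 8, 8.49, 8.45 and 8.48 on day 10, 8.43, 8.41 and 8.42 on day 14 and 8.53, 8.49 and 8.33 on day 18. Its arrays did not overlap between days 0, 2 and 4, and those of days 10 to 18 lay below those of days 2 to 8. Timm50 rose by 1.13 ± 0.08 by day 2 (adjusted p = 2.59e-10) and by a further 0.54 by day 4 (adjusted p = 1.46e-05), and it fell by 0.58 from day 6 to 18 (adjusted p = 8.66e-06). Among the members it was the one whose 8 day means were most like the median course of the other members (r = 0.98 over 8 days, a description of days that share arrays). Timm21, which links the TOM complex and the respiratory chain to TIM23, was late: its day 2 mean was 0.04 below day 0, it rose by 0.43 from day 4 to 6 (adjusted p = 0.00251) and was 0.61 above day 0 on day 18. The other 3 detected probes of Timm21 gave changes of 0.20, 0.23 and 0.47 from day 0 to day 2.

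Timm17a and Timm17b encode alternative subunits of this translocase. Timm17a read 10.76, 10.87 and 10.85 on day 0, 11.63, 11.50 and 11.44 on day 2, 11.63, 11.57 and 11.52 on day 4 and 11.60, 11.60 and 11.45 on day 6. Timm17a then read 11.51, 11.49 and 11.29 on day 8, 11.40, 11.31 and 11.36 on day 10, 11.46, 11.43 and 11.42 on day 14 and 11.47, 11.44 and 11.37 on day 18. The 3 arrays of day 0 lay below all others, and Timm17a rose by 0.70 ± 0.07 by day 2 (adjusted p = 1.07e-07). Timm17b read 5.57, 5.51 and 5.32 on day 0, 5.61, 5.50 and 5.76 on day 2, 5.53, 5.59 and 5.75 on day 4 and 5.63, 5.74 and 5.45 on day 6. Timm17b then read 5.65, 5.50 and 5.74 on day 8, 5.75, 5.41 and 5.20 on day 10, 5.82, 5.24 and 5.76 on day 14 and 5.72, 5.83 and 5.44 on day 18. The arrays of Timm17b overlapped on all days and its day means spanned 0.21, the narrowest span of the 27 members (course test adjusted p = 0.836). Timm17b was detected on 24 of 24 arrays but was dim, with day means of 5.45 to 5.66. The lowest detected level of an array was 4.75 to 4.91, so its narrow span rests on a weak signal. The ratio of Timm17a to Timm17b moved by up to 0.59 between day means, which a permutation test of the day labels over the 24 arrays did not call (adjusted p = 0.108 over 4 pairs). It was called at 0.00144 without background correction and at 0.00866 with median scaling, for which it moved by 0.67 and 0.93.

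The import motor works through Hspa9, the mitochondrial Hsp70, with Timm44 as its anchor, Grpel1 as its nucleotide exchange factor and Dnajc19 as a J-domain partner. All 4 were called higher on day 4 than on day 2, as were 18.7% of all genes. Grpel1 read 9.78, 9.69 and 9.52 on day 0, 10.86, 10.88 and 10.86 on day 2, 11.48, 11.33 and 11.46 on day 4 and 11.38, 11.47 and 11.51 on day 6. Grpel1 then read 11.25, 11.25 and 11.11 on day 8, 11.17, 11.07 and 11.11 on day 10, 11.12, 11.04 and 11.05 on day 14 and 10.99, 10.92 and 10.89 on day 18. Grpel1 on day 0 lay below every later array, and the arrays of days 4 and 6 above all others. It rose by 1.20 ± 0.07 by day 2 (adjusted p = 3.40e-11) and by 0.56 to day 4 (adjusted p = 3.74e-06), fell by 0.52 from day 6 to 18 and ended 2.41-fold above day 0. Hspa9 read 12.24, 12.24 and 12.05 on day 0, 13.16, 12.91 and 12.88 on day 2, 13.35, 13.46 and 13.35 on day 4 and 13.66, 13.67 and 13.49 on day 6. Hspa9 then read 13.52, 13.42 and 13.32 on day 8, 13.21, 13.49 and 13.22 on day 10, 13.09, 13.05 and 12.94 on day 14 and 13.17, 13.03 and 13.07 on day 18. Day 0 was lowest and day 6 highest in mean, with an overlap between the arrays of days 6 and 8. Hspa9 rose by 0.80 ± 0.10 by day 2 (adjusted p = 4.39e-07) and by 0.41 to day 4, and fell by 0.52 from day 6 to 18 (adjusted p = 2.03e-04).

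Timm44 read 8.63, 8.37 and 8.48 on day 0, 9.12, 9.01 and 9.14 on day 2, 9.63, 9.33 and 9.49 on day 4 and 9.66, 9.40 and 9.80 on day 6. Timm44 then read 9.72, 9.32 and 9.47 on day 8, 9.30, 9.03 and 9.41 on day 10, 9.29, 9.01 and 9.23 on day 14 and 9.34, 9.05 and 9.28 on day 18. Replicate 2 of Timm44 was lowest on 8 of 8 days. Timm44 rose by 0.59 ± 0.13 by day 2 (adjusted p = 6.48e-04) and by 0.39 to day 4 (adjusted p = 0.0204, 0.0724 without replicate 2 of day 2 and 0.0944 without replicate 1 of day 4). It fell by 0.40 from day 6 to 18 (adjusted p = 0.0215), which was lost without replicates 1 or 3 of day 6 or replicate 2 of day 18. Dnajc19 read 10.87, 11.01 and 10.93 on day 0, 10.94, 10.87 and 11.07 on day 2, 11.23, 11.14 and 11.31 on day 4 and 11.08, 11.07 and 11.002 on day 6. Dnajc19 then read 11.22, 11.26 and 11.15 on day 8, 11.30, 11.08 and 11.23 on day 10, 11.31, 11.26 and 11.21 on day 14 and 11.28, 11.41 and 11.28 on day 18. All arrays of Dnajc19 lay between 10.87 and 11.41, and days 0 and 2 overlapped. Dnajc19 was 0.02 higher on day 2 than on day 0 and rose by 0.26 to day 4 (adjusted p = 0.00881, 0.0518 without replicate 2 of day 2). It rose by 0.28 from day 6 to 18 (adjusted p = 0.00765, 0.0778 with the mean of probes). The other 3 motor genes were called lower in that stage, as were 18.5% of all genes. A second, dimmer Dnajc19 probe gave -0.25 from day 0 to day 2.

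The processing peptidase is a dimer of Pmpca and the catalytic Pmpcb. Pmpca read 4.81, 4.58 and 5.05 on day 0, 5.49, 5.39 and 5.25 on day 2, 5.68, 5.48 and 5.48 on day 4 and 5.33, 5.47 and 5.31 on day 6. Pmpca then read 5.25, 4.99 and 5.07 on day 8, 5.37, 5.01 and 5.09 on day 10, 4.93, 4.61 and 5.05 on day 14 and 5.04, 4.77 and 5.003 on day 18. Pmpca was close to background, detected on 20 of 24 arrays and on 1 of 3 on day 0; it rose by 0.57 ± 0.13 by day 2 (adjusted p = 0.00110) and fell by 0.43 from day 6 to 18 (adjusted p = 0.0140, 0.0573 without replicate 2 of day 6 and 0.0791 without replicate 2 of day 18). In each replicate number its highest array was that of day 4. Pmpcb read 7.16, 8.90 and 8.43 on day 0, 7.84, 9.15 and 8.92 on day 2, 8.44, 10.02 and 9.40 on day 4 and 8.47, 10.08 and 9.50 on day 6. Pmpcb then read 8.52, 10.34 and 9.62 on day 8, 8.50, 10.16 and 9.54 on day 10, 8.60, 10.28 and 9.47 on day 14 and 8.78, 10.19 and 9.65 on day 18. The replicates of Pmpcb stood apart on every day, in the order 1, 3, 2 from low to high, and the day means ran from 8.16 on day 0 to 9.54 on day 18. The difference of 1.38 ± 0.61 from day 0 to 18 had adjusted p = 0.0605, and 4.87e-11 with the block, since the residual SD was 0.818 without and 0.111 with it. The ratio of Pmpca to Pmpcb moved by 1.34 between day means (adjusted p = 0.479, and 2e-05 with the block).

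The matrix chaperonin is built from Hspd1 (Hsp60) and its lid Hspe1 (Hsp10), whose overlapping promoter windows are printed above (for Hspd1 the lower of its 2). Hspd1 read 10.87, 11.44 and 11.22 on day 0, 12.63, 12.84 and 12.78 on day 2, 12.85, 13.26 and 13.08 on day 4 and 12.63, 12.94 and 12.84 on day 6. Hspd1 then read 12.16, 12.53 and 12.41 on day 8, 11.73, 12.69 and 11.98 on day 10, 11.79, 12.01 and 11.97 on day 14 and 11.69, 11.84 and 11.93 on day 18. Day 0 arrays lay below all others, and those of day 4 above day 2 within each replicate. Hspd1 rose by 1.57 ± 0.19 by day 2 (2.98-fold, adjusted p = 4.59e-07) and fell by 0.98 ± 0.19 from day 6 to 18 (adjusted p = 2.94e-04). A second Hspd1 probe gave 2.34 and -1.32 for the same comparisons. Hspe1 read 9.08, 10.07 and 9.69 on day 0, 10.73, 11.29 and 11.20 on day 2, 10.82, 11.81 and 11.37 on day 4 and 10.08, 10.75 and 10.84 on day 6. Hspe1 then read 9.87, 10.77 and 10.47 on day 8, 9.80, 10.76 and 10.38 on day 10, 9.39, 10.46 and 10.04 on day 14 and 9.97, 10.36 and 10.25 on day 18. Within each replicate number the highest array was that of day 4. Hspe1 rose by 1.46 ± 0.33 by day 2 (adjusted p = 8.08e-04), and its fall of 0.77 from day 4 to 6 was called only with the block (adjusted p = 0.0856 without and 9.85e-06 with it). The ratio of Hspd1 to Hspe1 moved by 0.68 between day means, highest on day 6 (permutation test, adjusted p = 0.108, and 0.00256 with the block). The same test gave 0.0489 without background correction and 0.0458 with median scaling. With the mean of all detected probes of a gene the ratio moved by 1.16 (adjusted p = 0.122).

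The pair Timm8a1 and Timm8b was the one whose ratio was called with neqc and no block: it moved by 1.53 from day 0 to day 2, was 0.80 on day 4 and 0.96 on day 6, and was back at 0.06 on day 14 (permutation p = 1e-05, the smallest 100000 resamples can give; adjusted p = 4e-05). On day 2 the ratio of every array was at least 1.39 above the day 0 mean, and on day 0 at most 0.16 above it.

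**Figure D4:**
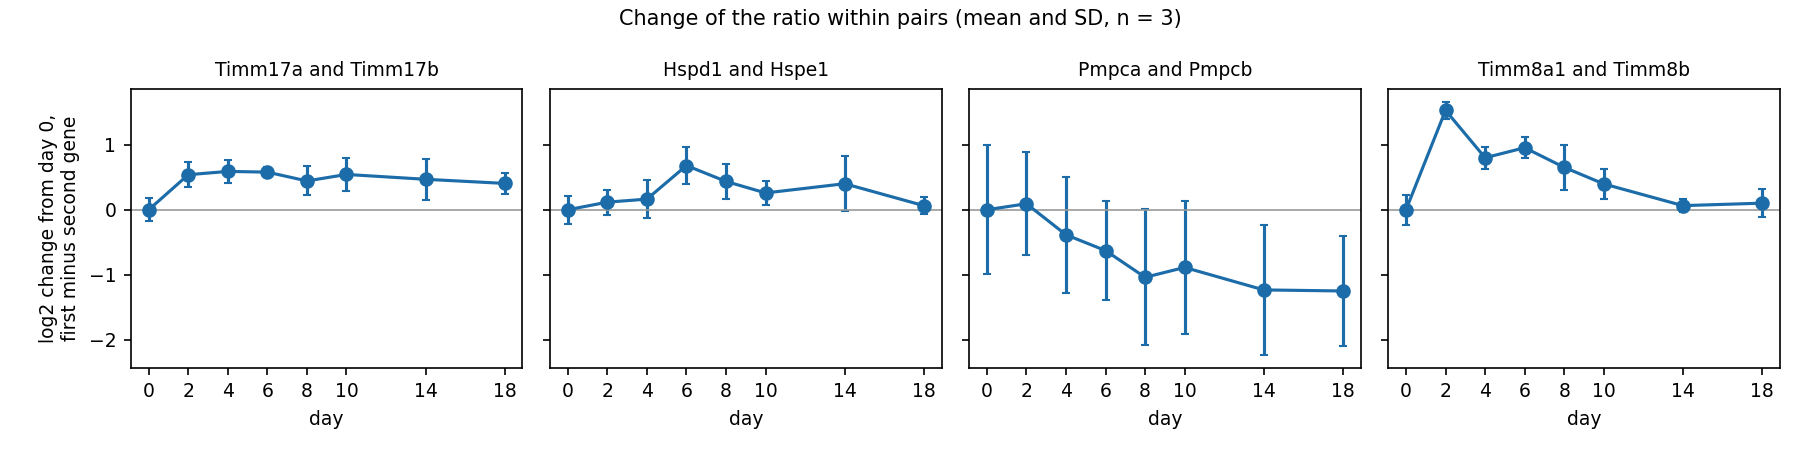
Each panel shows, for 1 pair, the mean log2 change from day 0 of the first gene minus the second (vertical axis) against day (horizontal axis); bars are the SD within a day (n = 3) and the line at 0 means the ratio of day 0. Timm8a1 to Timm8b jumps to 1.53 on day 2 and returns, while the bars of Pmpca to Pmpcb cross 0 up to day 10.

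Timmdc1 carries a Timm symbol and is known in human cells as an assembly factor of complex I. Timmdc1 read 5.79, 6.49 and 6.58 on day 0, 6.84, 7.66 and 7.43 on day 2, 7.17, 8.27 and 7.98 on day 4 and 6.91, 8.11 and 7.33 on day 6. Timmdc1 then read 7.02, 7.58 and 7.17 on day 8, 6.59, 7.72 and 7.27 on day 10, 7.04, 7.52 and 7.37 on day 14 and 6.67, 7.75 and 7.15 on day 18. Replicate 1 was lowest on 8 of 8 days. Timmdc1 was 1.02 ± 0.36 higher on day 2 than on day 0 (adjusted p = 0.0211, 1.72e-06 with the block), and this was not called without replicate 1 of day 0 (adjusted p = 0.112), replicate 2 of day 2 (0.0911), replicate 3 of day 2 (0.0614) or without background correction (0.50, adjusted p = 0.0511). On day 18 it was 0.90 above day 0 (adjusted p = 0.0375), which was lost without replicate 1 of day 0 or replicates 2 or 3 of day 18.

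The level of 5 import genes differed widely between replicate numbers. Pmpcb, Tomm70a and Tomm22 differed by 1.60, 1.30 and 1.16 between replicates 2 and 1 on average over the days, and Timmdc1 and Hspe1 by 0.88 and 0.82. A spread of at least 1 was found for 3 of 27 members (11.1%) and for 257 of all genes tested (2.69%). The raw intensity showed it too: Pmpcb averaged 423 in replicate 1, 1142 in replicate 2 and 705 in replicate 3, each over 8 arrays. For Hspd1 the probe used was lowest in replicate 1 on 8 of 8 days, and the second probe on 0 of 8 days. The cause of these differences was not tested.

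**Figure D5:**
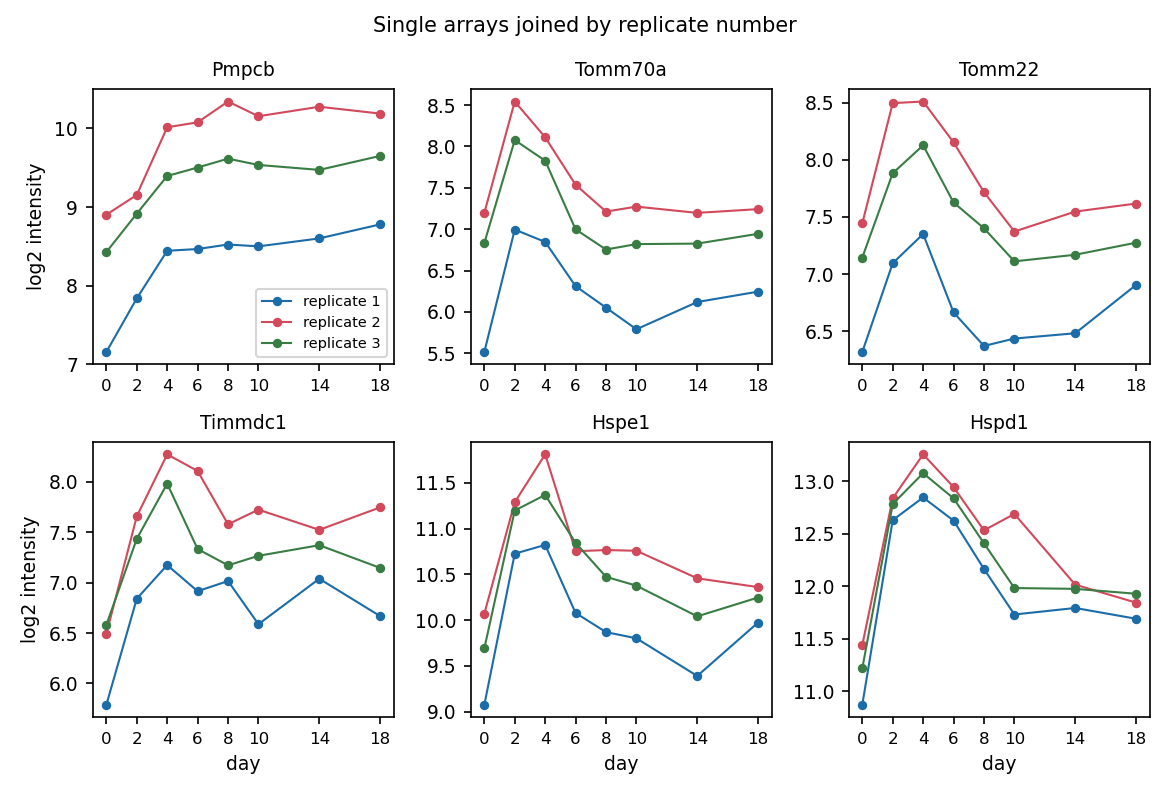
Log2 intensity (vertical axis, a scale of its own in each panel) against day, with arrays of one replicate number joined by a line. In the panels of Pmpcb, Tomm70a and Tomm22 the 3 lines run apart in the order 1, 3, 2 from low to high on all 8 days, with like shapes.

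Of 22 further import and insertion factors, 14 were tested; 11 rose and 2 fell by day 2 (25% and 26.5% of all genes; median 0.56, against 0.02 over all genes), and 11 were higher and 1 lower on day 18 than on day 0 (23.2% and 34% of all genes; median 0.87, against -0.08). Chchd4, the oxidoreductase that folds small Tims in the intermembrane space, rose by 2.08 ± 0.10 by day 2 (adjusted p = 1.53e-12), its partner Aifm1 by 1.36 and Gfer, which reoxidises Chchd4, by 0.97. Mtch1 (-0.48) and Dnajc15 (-0.20) fell in that step. Dnajc15, a relative of Dnajc19, then rose by 1.39 ± 0.07 to day 4 (adjusted p = 7.04e-12) and was 2.06 above day 0 on day 18. Mtch2, an insertase of the outer membrane, rose by 1.02 from day 2 to 4 and was 1.56 above day 0 on day 18.

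Proteases and chaperones of the inner membrane and matrix (11 of 14 tested) gave 8 genes that rose and 0 that fell by day 2 (25% and 26.5% of all genes), and 0 that rose and 6 that fell from day 6 to 18 (18% and 18.5%). Phb2, a prohibitin, rose by 0.94 by day 2, the protease Oma1 by 0.81 and the chaperone Trap1 by 0.73, and Clpx, the unfoldase of a matrix protease, rose by 1.49 from day 2 to 4 and fell by 1.18 from day 6 to 18. Of 8 tested cytosolic chaperones that carry precursors 4 rose by day 2 (25% of all genes), Hspa4 by 1.20 and Stip1 by 0.77, and 3 fell from day 4 to 6 (14%). Of 4 tested MICOS genes, which shape the cristae, 3 were higher on day 18 than on day 0 (23.2% of all genes), Chchd6 by 1.41 and Immt by 1.30. Of 10 tested regulators of mitochondrial biogenesis 9 rose by day 2 (25% of all genes), led by Ppargc1b (3.16 ± 0.25, adjusted p = 1.27e-09), a coactivator, and Esrra (1.08), a nuclear receptor it works with. Myc was also called higher, and was detected on 0 of 3 arrays of day 0 and on 3 of 3 of day 2, so it has only a bound on day 0. The regulator not called by day 2 was Ppargc1a (-0.03 ± 0.66, adjusted p = 0.975). On day 18 Ppargc1a was 1.63 above day 0 (adjusted p = 0.0401). From day 6 to 18, 5 of the 10 fell (18.5% of all genes). On day 18, 6 of the 10 were higher than on day 0 and 1 was lower (23.2% and 34% of all genes), with a median change of 0.62. The lower gene was Nrf1, by 0.55.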

How the data were processed

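Total RNA of 3T3-L1 cells was hybridised to Illumina beadchips, and a deposited, non-normalized file gives the intensity of each probe, with a detection p-value beside each intensity. A second deposited table holds normalized intensity and served as an alternative. The submitters' processing notes name GenomeStudio 2011.1 without its role. Probes were named through the platform annotation given with the series. Intensities were corrected and quantile normalized with neqc in limma 3.58.1 (R 4.3.3, offset 16), giving log2 values. Probes detected at p under 0.05 on at least 3 of 24 arrays were kept, and a gene was read from its brightest kept probe. One fit with 1 mean per day (16 residual degrees of freedom) gave the moderated F test and 9 contrasts, adjusted by Benjamini-Hochberg over 9558 genes at a threshold of 0.05. Error values are limma's SE unless called SD. The 4 pairs were tested by permuting the day labels over arrays (Python 3.11.15, 100000 resamples), with the F between days as the statistic, which has no direction.

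The replicate numbers of the labels pair the arrays: deviations from the day means of same-numbered arrays correlated above 0.1 in 84 of 84 pairs (mean 0.543, range 0.251 to 0.762; other numbers mean -0.260), and 24 of 24 arrays correlated best with their own number. The blocked fit is an alternative. On simulated data with 9558 genes, the fit without block recovered 49 of 100 genes changed by 0.5 and 91 of 100 changed by 1 on the log2 scale from day 0 to day 2. With replicate effects simulated, it recovered 43 and 92, and the blocked fit 71 and 100. False calls among the unchanged genes numbered 9, 1 and 7 in turn. No other genes were changed, whereas 51.5% of all genes were called from day 0 to 2 in the data. The shares recovered therefore do not give the sensitivity of the fits to the real changes.

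Named members followed a rule: values on each array for the 8 widest and 2 narrowest spans, the pairs and the core of each complex, in each comparison the 4 largest rises and falls and every call against the majority, and up to 3 genes each way from the other lists; Tomm7, Tomm34 and further members were also described. Members and lists were chosen with earlier results of these data known. The alternatives were other background correction, scaling, filters, probe rules, variance trend, the block and leaving out each array.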

Additional observations from a re-analysis of the deposited data

How the results depend on the processing

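No call of a member reversed. Of 70 calls, 49 held in every setting, 19 were lost when some 1 array was left out and 8 in another setting. Without background correction 5 members were lower from day 6 to 8, and the ratios of Timm17a to Timm17b and of Hspd1 to Hspe1 passed with spans of 0.67 (adjusted p = 0.00144) and 0.73 (0.0489). With median scaling those spans were 0.93 (0.00866) and 0.78 (0.0458). With the mean of all probes of a gene 1 member was called from day 8 to 10, and it was lower.

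With the replicate number as a block, 1 member was lower from day 0 to 2 (61.3% of all genes called in either direction). From day 2 to 4, 13 members were called, 1 of them lower (53.3% of all genes called). From day 4 to 6 it was 12, 9 lower (41.3%), and from day 6 to 8 it was 8, 7 lower (23.3%). From day 8 to 10, 4 were called, all 4 lower (10.6%). From day 10 to 14, 2 were called, 1 higher and 1 lower (5.99%). The ratios of Hspd1 to Hspe1 (span 0.68, adjusted p = 0.00256) and of Pmpca to Pmpcb (1.34, 2e-05) then passed. The block changed no other pair, and it lost no call of a member.

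Leaving out 1 array gave 20 to 22 members changed over the course, beside 74.5% of all genes with all 24 arrays. Members called numbered 15 to 19 from day 0 to 2 (51.5% of all genes) and 5 to 8 from day 2 to 4 (41.4%). From day 4 to 6 there were 4 to 7 (29.3%), 2 to 5 of them lower. From day 6 to 8 there were 1 to 5 (13%), 0 to 1 higher and 1 to 4 lower. From day 8 to 10 there were 1 to 2 (3.95%), with 1 to 2 lower. There were 10 to 14 from day 6 to 18 (36.5%) and 16 to 19 from day 0 to 18 (57.2%). These shares are from the fit with all 24 arrays, and those without 1 array are not given. The spans ran from 0.50 to 0.68 for Timm17a to Timm17b, 0.53 to 0.81 for Hspd1 to Hspe1, 1.25 to 1.78 for Pmpca to Pmpcb and 1.47 to 1.61 for Timm8a1 to Timm8b; without replicate 2 of day 14 the first 2 passed (adjusted p = 0.0403). The median of all genes from day 0 to 18 was -0.08, and 0.05 with median scaling. Pmpca, Timm13, Timm22 and Tomm40 were detected on 20, 22, 19 and 15 of 24 arrays, so their changes rest on signals near background. In simulation with replicate effects and few genes changed, 43 of 100 changes of 0.5 were recovered without the block and 71 with it.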
